A study of Mus musculus with 2 samples.

Results

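A set of 10 microRNA genes in the stretch of mouse chromosome 12 that holds Meg3 and Rtl1 was examined in the liver of newborn mice: Mir770, Mir673, Mir493, Mir337, Mir540, Mir665, Mir431, Mir433, Mir127 and Mir434. They were chosen by name, and all lie on the plus strand between Meg3 and Rtl1 or inside either gene. They are 10 of the 1973 microRNA genes in the count tables. Other microRNA genes lie in the same stretch, among them Mir3070a, Mir3070b and Mir432 on the plus strand, and are described apart from the 10. The samples are livers of strain B6NCrl at postnatal day 0, taken from 2 pups labelled as born to the same female, called pup 2 and pup 1 here after their labels. Each liver gave 1 microRNA sequencing library from total RNA, size-selected for short inserts, and the 2 libraries form 1 untreated group with no second condition. The sex of the pups was not recorded. Pup 2 had 4538427 and pup 1 had 3422622 reads assigned to microRNA genes in the sense direction, and a level is given in counts per 1000000 such reads (CPM). A gene at 0 counts could still have had up to 0.661 CPM in pup 2 and 0.877 CPM in pup 1. The labelled tissue was checked with the hepatocyte list Mir122, Mir192 and Mir194-2, which summed to 366126 CPM in pup 2 and 354080 CPM in pup 1.

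A microRNA is cut from a hairpin in a longer transcript and guides the silencing complex to messenger RNAs, mainly through its seed, bases 2 to 8. This stretch belongs to the imprinted Dlk1-Dio3 domain, in which the maternally inherited chromosome makes the noncoding RNA Meg3 and the microRNAs, while the paternally inherited one makes Dlk1, Rtl1 and Dio3. Rtl1 is a gene derived from a retrotransposon that the placenta and its fetal vessels need. Some microRNAs of the stretch are read from the strand opposite to Rtl1, inside its coding sequence. They are therefore fully complementary to the Rtl1 messenger RNA, and cleavage of that RNA at such sites, among them that of Mir127, has been described in mouse. In a bulk liver, fewer cells that make a microRNA and less of it in each cell cannot be told apart.

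All 10 genes had both mature arms in RefSeq on build GRCm38.p6, which is mm10. Of the 20 arms, 8 matched the Rtl1 messenger RNA without a mismatch over their whole length. These were both arms of Mir431, Mir433, Mir127 and Mir434, called the Rtl1-antisense genes below. They are shown because they carried most of the reads of the stretch. The seed is in capitals.
mmu-miR-431-5p: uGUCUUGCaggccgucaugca
mmu-miR-431-3p: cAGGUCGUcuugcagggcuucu
mmu-miR-433-5p: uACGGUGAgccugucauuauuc
mmu-miR-433-3p: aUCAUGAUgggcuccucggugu
mmu-miR-127-5p: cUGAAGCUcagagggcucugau
mmu-miR-127-3p: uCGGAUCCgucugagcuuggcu
mmu-miR-434-5p: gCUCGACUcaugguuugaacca
mmu-miR-434-3p: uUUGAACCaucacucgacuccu

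The 4 hairpins lie within 4153 bases of exon 2 of Rtl1, inside its coding sequence of 5232 bases. Rtl1 runs on the minus strand, so the order of the sites in its messenger RNA is the reverse of the order along the chromosome. The sites of Mir434 come first, from coding base 818 for the 3p arm and 855 for the 5p arm. Those of Mir127 follow at 2495 and 2529, those of Mir433 at 3602 and 3654, and those of Mir431 near the end at 4881 and 4925. The sites of 1 arm each of Mir127 and Mir431, the 2 genes read most, are written here 5′ to 3′ on the Rtl1 strand, with the bases that pair with the seed in capitals.
Rtl1 site of miR-127-3p, chr12:109592888-109592909 (mm10, minus strand): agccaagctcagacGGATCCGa
Rtl1 site of miR-431-5p, chr12:109590459-109590479 (mm10, minus strand): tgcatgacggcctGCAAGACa

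The 20 arms had 20 distinct seeds, so no pair of arms in the stretch formed a seed family. Outside it, the seed of miR-673-5p was shared by miR-6985-3p and that of miR-540-3p by miR-6915-5p. Mir6985 had 0 counts in both pups, and Mir6915 had no entry under that name among the counts, so no level can be given for it. Within a hairpin, the arms of Mir431 shared a run of 10 bases and those of Mir434 a run of 9, against 3 to 6 bases in the other 8 genes. The shared run is in capitals below. In Mir431 it starts at base 2 of the 5p arm, on the seed, and at base 7 of the 3p arm. In Mir434 it opens the 3p arm and ends the 5p arm.
Mir431, 5p arm: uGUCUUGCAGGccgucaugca
Mir431, 3p arm: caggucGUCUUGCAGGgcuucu
Mir434, 5p arm: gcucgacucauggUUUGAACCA
Mir434, 3p arm: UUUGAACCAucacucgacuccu

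The deposited count of a gene covers the whole hairpin, so none of the levels below can be assigned to the 5p or the 3p arm. None of the 10 hairpins shared a run of 20 bases with another microRNA locus, the length used here to mark a count as uncertain.

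**Figure D1:**
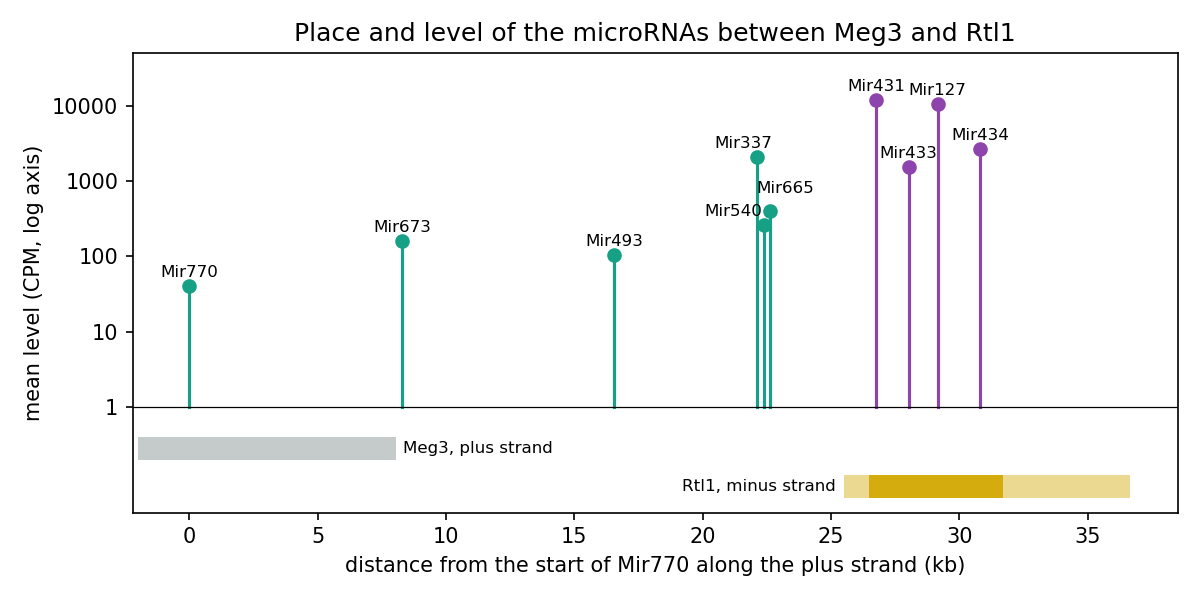
Mean level of each microRNA (CPM, log axis, mean of 2 pups) against its distance in kb from the start of Mir770 along the plus strand, with the Rtl1-antisense genes in purple and the other genes in green. The bars below show Meg3, of which only the last part is drawn, and Rtl1 with its coding sequence in the darker shade; Mir431 and Mir127, at 11840 and 10444 CPM, stand over that coding sequence.

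All 10 genes were read, and most of their reads came from the 4 genes antisense to Rtl1. Every one of the 10 genes had at least 100 counts in both pups. Of all 1973 genes, 221 had at least 100 counts in both pups. At least 10 counts in both pups, the limit for detection, were reached by 312 of all 1973 genes, or 15.8%. Together the 10 genes held 3.07% of the microRNA counts in pup 2 (exact 95% interval 3.05 to 3.08) and 2.84% in pup 1 (2.82 to 2.86), a mean of 2.95% ± 0.162 (SD, n = 2). The 4 Rtl1-antisense genes made up 90.2% of that sum in pup 2 and 89.2% in pup 1, and the 6 genes outside Rtl1 the rest. Their summed level was 9.23 times that of the other 6 genes in pup 2 and 8.25 times in pup 1. Mir431 and Mir127 alone held 75.8% of the counts of the 10 genes in pup 2 and 75.1% in pup 1. Intervals reflect counting error within 1 library alone and leave out the spread between pups. PCR copies of a molecule are counted as separate reads, which can make the intervals too narrow.

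Of the Rtl1-antisense genes, Mir431 was read most. It is known in mouse skeletal muscle as a regulator of satellite cells through Pax7. Mir431 (ENSMUSG00000070080.1, chromosome 12, 109590447 to 109590537) had 58359 counts in pup 2 and 37039 in pup 1, which are levels of 12859 and 10822 CPM. It ranked 15 among all microRNA genes in pup 2 and 18 in pup 1. Its mean level was 11840 ± 1440 CPM (SD, n = 2), and by mean level it stood between Mir23b at 12518.5 CPM and Mir30e at 11799 CPM.

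Mir127 lies 29.2 kb from the start of Mir770 and is the best known of these genes, with Rtl1 as its described target in mouse and BCL6 in human cells. Mir127 (ENSMUSG00000070076.1, 109592846 to 109592915) had 47144 counts in pup 2 and 35938 in pup 1, or 10388 and 10500 CPM. The pups were nearly equal, with a mean level of 10444 ± 79.5 CPM, and Mir127 stood between Mir130a at 11637 CPM and Mir23a at 10381 CPM. The level of Mir431 was 1.24 times that of Mir127 in pup 2 and 1.03 times in pup 1, a mean ratio of 1.13 ± 0.147. This was the only neighbouring pair in the order of the 10 genes whose gap was smaller than the sum of the SDs. The order of these genes is thus not settled. Divided by hairpin length, 91 bases for Mir431 and 70 for Mir127, the mean ratio was 0.873. Reads of mature arms need not scale with that length, so this value does not decide the order.

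Mir434 and Mir433 were lower than that pair. Mir434 (ENSMUSG00000070133.1, 109594506 to 109594599) had 12962 counts in pup 2 and 8466 in pup 1, or 2856 and 2474 CPM, with a mean of 2665 ± 270 CPM. Its neighbours by mean level were Mir194-2 at 2733 CPM and Mir425 at 2503 CPM. The level of Mir127 was 3.64 times that of Mir434 in pup 2 and 4.24 times in pup 1. Mir433 (ENSMUSG00000070072.1, 109591715 to 109591838) lies 1007 bases before Mir127 and 1177 bases after Mir431, and it was the lowest of the 4. It had 7193 counts in pup 2 and 5222 in pup 1, or 1585 and 1526 CPM. The level of Mir431 was 8.11 times that of Mir433 in pup 2 and 7.09 times in pup 1, and the level of Mir127 was 6.55 times that of Mir433 in pup 2 and 6.88 times in pup 1. Read levels of neighbours a kilobase apart on the same strand thus differed far beyond the spread between the pups. That spread leaves out any difference in how well each sequence is read that both libraries share, which was not tested.

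The Rtl1-antisense stretch has further microRNAs. Mir432, also fully complementary to Rtl1, had 0 counts in both pups. Next to it lie Mir136 on the plus strand and Mir3071 on the minus strand (109595318 to 109595397), which overlap. Both arms of Mir136 match the start of the Rtl1 coding sequence, from coding bases 17 and 52. The tables hold 1 entry for this place, with 5411 counts in pup 2 and 4204 in pup 1, or 1192 and 1228 CPM. Its identifier belongs to Mir3071 in the later annotation used for names, with a changed version, so it cannot be told from the files which of the 2 genes was counted. With that entry added, the Rtl1-antisense genes made up 90.1% ± 0.673 of the sum.

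Of the 6 genes outside Rtl1, Mir337 stood alone at a level like that of the Rtl1-antisense genes. Mir337 (ENSMUSG00000065526.3, 109585789 to 109585885) had 8920 counts in pup 2 and 7405 in pup 1, or 1965 and 2164 CPM, a mean of 2064 ± 140 CPM. That placed it between Mir434 and Mir433, with a Mir434 level 1.45 times that of Mir337 in pup 2 and 1.14 times in pup 1. Mir540 and Mir665 follow Mir337 at gaps of 194 and 167 bases and had lower levels. Mir665 (ENSMUSG00000076313.1, 109586314 to 109586407) had 413 CPM in pup 2 and 388 CPM in pup 1, a mean of 401 ± 18.1 CPM. Mir540 (ENSMUSG00000072900.1, 109586080 to 109586146) had 293 CPM in pup 2 and 236 CPM in pup 1, a mean of 265 ± 40.2 CPM. The level of Mir337 was 6.70 times that of Mir540 in pup 2 and 9.15 times in pup 1.

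The first 3 genes along the chromosome, Mir770, Mir673 and Mir493, had the 3 lowest levels. Mir673 (ENSMUSG00000076316.1, 109571990 to 109572080) starts just past the annotated end of Meg3 and had 172 CPM in pup 2 and 149 CPM in pup 1. Mir493 (ENSMUSG00000077025.2, 109580233 to 109580315), described in human cells as a suppressor of colon cancer spread to the liver, had 108 CPM in pup 2 and 99.0 CPM in pup 1. Mir770 (ENSMUSG00000076451.1, 109563692 to 109563785) is the only one of the 10 within Meg3: it lies in an exon of 1 annotated Meg3 transcript and in introns of the others that span it. It had 216 counts in pup 2 and 115 in pup 1, or 47.6 and 33.6 CPM, and was the lowest of all. The level of Mir431 was 270 times that of Mir770 in pup 2 and 322 times in pup 1.

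The order of the 10 levels was the same in both pups, from Mir431, Mir127, Mir434, Mir337 and Mir433, all above 1000 CPM, to Mir665, Mir540, Mir673, Mir493 and Mir770. Of the 9 neighbouring pairs in this order, 8 were separated, in that the pups' values did not overlap and the means were further apart than the SDs added up. This separation is one of reads and does not cover how well each sequence is read. The smallest separated steps were those of Mir434 over Mir337, 1.30 ± 0.219, and of Mir337 over Mir433, 1.33 ± 0.126. The median of the 10 mean levels was 978 CPM, against 160 CPM for all 312 genes detected. The hairpin GC content ran from 45.7% in Mir434, with a mean level of 2665 CPM, to 70.2% in Mir770, with 40.6 CPM. Mir431 at 60.4% and Mir540 at 61.2% had mean levels of 11840 and 265 CPM. A relation of GC content to level was not tested.

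**Figure D2:**
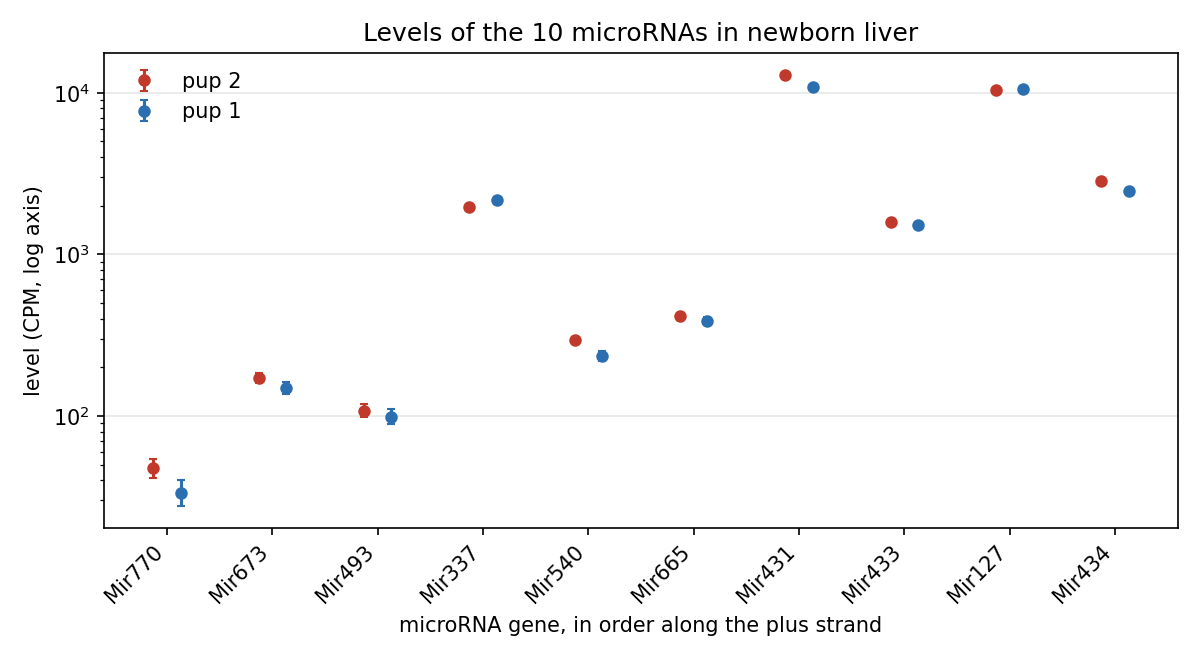
Level of each of the 10 microRNAs (CPM, log axis) in pup 2 (red) and pup 1 (blue), in order along the plus strand; bars are exact 95% intervals of the count, smaller than the points for the abundant genes. The pups lie close together for every gene, and the levels run from 47.6 and 33.6 CPM for Mir770 to 12859 and 10822 CPM for Mir431.

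The pups were then compared to see how far the 10 levels varied between littermates. In pup 2 most of the genes were slightly higher, Mir337 was lower and Mir127 was almost equal. A two-sided exact binomial test was run on every gene with at least 10 counts over both libraries, 390 in all, with Benjamini-Hochberg adjustment, and a gene was called at an adjusted p below 0.05. This test asks whether 2 libraries differ beyond counting error and says nothing of a condition. Of the 10 genes 6 were called, 5 higher and 1 lower in pup 2, beside 30.3% of all 390 genes tested, 15.9% higher and 14.4% lower. The median log2 ratio of pup 2 over pup 1 was 0.17 for the 10 genes and 0.00 for all 390. All 10 are well counted, and among the 221 genes that reached 100 counts in each pup 53 were called higher and 55 lower.

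Mir770 had the largest ratio, with a log2 ratio of 0.50 (exact 95% interval 0.17 to 0.84, adjusted p = 0.0104 in the exact binomial test). Mir540 followed at 0.31 (0.18 to 0.44, exact binomial adjusted p = 6.95e-06). The abundant Mir431 was called at 0.25 (0.23 to 0.27, exact binomial adjusted p = 1.22e-148), where the deep counts make the interval narrow. Mir673 at 0.21 and Mir434 at 0.21 were the other genes called higher, and only Mir337 was called lower, at -0.14 (-0.18 to -0.09, exact binomial adjusted p = 8.68e-09). Mir673 was close to the limit, with an adjusted p of 0.0335 in the exact binomial test. The genes not called had log2 ratios of 0.12 for Mir493, 0.09 for Mir665, 0.05 for Mir433 and -0.02 for Mir127.

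With edgeR's exact test for negative binomial counts, which adds a common dispersion estimated from these same libraries to the counting error, 0 of the 10 genes were called and 0 had an unadjusted p under 0.05. That test called 2 of the 390 genes, or 0.513%, and 12 had an unadjusted p under 0.05. The median size of the log2 ratio, regardless of sign, was 0.173 for the 10 genes and 0.187 for all 390.

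**Figure D3:**
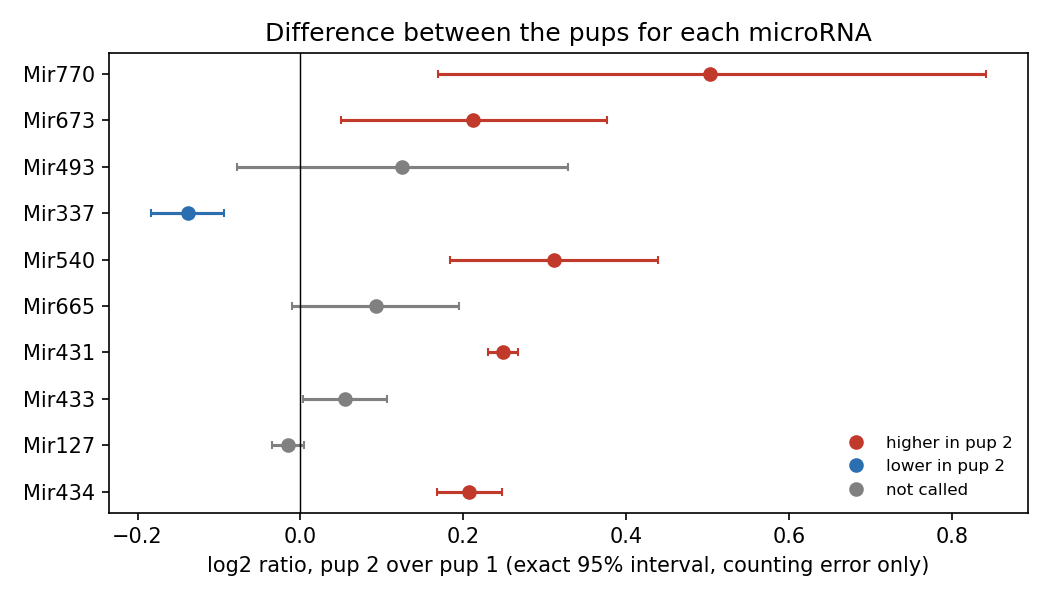
Log2 ratio of pup 2 over pup 1 for each of the 10 microRNAs with its exact 95% interval, which covers counting error only; red points were called higher and blue points lower in pup 2 by the exact binomial test, and grey points were not called. Mir337 alone was called lower, at -0.14, and the interval of Mir770 is the widest, from 0.17 to 0.84.

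**Figure D4:**
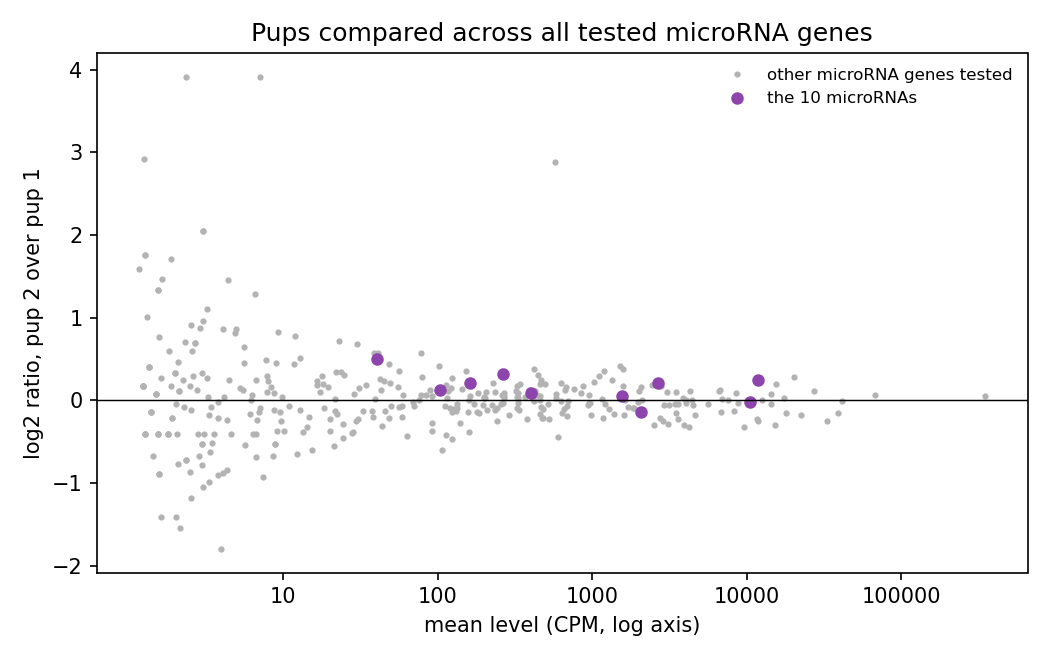
Log2 ratio of pup 2 over pup 1 against mean level (CPM, log axis) for the 390 microRNA genes tested, with the 10 genes of the stretch as large purple points and all others in grey. The 10 points lie between -0.14 and 0.50.

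Mir206, a skeletal muscle microRNA, was also higher in pup 2, with a log2 ratio of 2.88 (exact 95% interval 2.74 to 3.02). Of the 7 skeletal muscle genes with an entry, 4 had counts, and their summed level was 1064 CPM in pup 2 and 176 CPM in pup 1, mostly Mir206 at 1004 and 136 CPM. Of the other muscle genes with counts, Mir208b and Mir133b were called higher in pup 2, and Mir499 had a log2 ratio of 0.31 and was not called. Mir1a-1, Mir133a-1 and Mir133a-2 had 0 counts in both pups, but each shares 20 bases with 2 other loci, and reads at several loci were counted on no gene, so these zeros are uncertain, as is the count of Mir133b. The part of muscle RNA in the ratios of the 10 genes was not tested. The summed levels of the other lists were closer between pups: the endothelial gene Mir126a had 69174 CPM in pup 2 and 65978 CPM in pup 1, the mesenchymal list 15783 and 14990 CPM, the erythroid list 5096 and 5251 CPM, the leukocyte list 9092 and 9973 CPM, and the neural list 111 and 102 CPM. These sums cover members that went opposite ways. The log2 ratio was 0.38 for Mir144 and -0.23 for Mir451a in the erythroid list, and 0.44 for Mir150, -0.13 for Mir223 and -0.21 for Mir342 in the leukocyte list, all called by the exact binomial test. Their part in the ratios of the 10 genes was not tested either.

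The stretch was set against the Mir379-Mir410 cluster, the larger group of microRNAs further along the same domain, with 35 listed entries in the tables. Of these, Mir496b lies on chromosome 19 and had 0 counts in both pups, so it adds nothing to the sums. That cluster's summed level was 2.38 times that of the 10 genes in pup 2 and 2.37 times in pup 1, with an SD of 0.000612. For these entries the balance of the 2 groups was nearly the same in both pups, while both sums were higher in pup 2. The cluster summed to 72888 CPM in pup 2 and 67407 CPM in pup 1, led by Mir411, Mir379, Mir487b and Mir541. The 10 genes held 29.0% of the counts of all entries of the domain between Meg3 and the end of that cluster in pup 2 and 28.9% in pup 1. The ratio and its spread between the pups depend on what is counted. The ratio was 1.40 ± 0.0375 once genes sharing 20 bases with another locus were left out, which removes Mir411, Mir487b, Mir376c and Mir758. It was 3.10 ± 0.0664 once reads at the places of Mir299a, Mir380, Mir376a and Mir409 were added, an alternative chosen after the data were seen. Of the 32 cluster genes tested, 12 were called higher and 3 lower in pup 2, beside 15.9% higher and 14.4% lower of all 390 genes tested, and the median log2 ratio was 0.08.

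Outside the Mir379-Mir410 cluster, the other listed hairpins between the 10 genes and past them had lower levels than Mir431 and Mir127. Mir3070a, between Mir665 and Mir431, had 10.6 CPM in pup 2 and 11.1 CPM in pup 1, and Mir3070b had 6 counts in pup 2 and 2 in pup 1; each shares 20 bases with 1 other locus, so both counts are uncertain. Mir1906-1, within Meg3, had 0 counts in both pups, but it also shares 20 bases with 1 other locus, so its count is uncertain too. Mir341 and Mir370, which lie beyond Rtl1, had means of 945 ± 29.4 and 116 ± 6.30 CPM. Among imprinted microRNAs elsewhere, Mir335 of Mest had 22369 ± 1933 CPM, Mir483 of Igf2 had 4268 ± 235 CPM, and Mir298, Mir296 and Mir675 had means of 763, 476 and 160 CPM. Mir431 and Mir127 thus stood below Mir335 and above the other 4.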

How the data were processed

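MicroRNA sequencing of 2 newborn livers was used, 1 library a pup. The authors' deposited values are raw counts per microRNA gene, made on mm10 and GENCODE M4 per the deposited text; for the aligner, counter and trimming, the steps were not given in the sources used here. Gene-strand counts were used, a reading of the unnamed columns taken from their sums. Multimapping reads (24.7% of reads in pup 2, 25.2% in pup 1) were assigned to no gene. Uniquely mapped reads with no gene on their strand (9.92% and 8.87%) stayed out of totals. These include reads on the opposite strand of a gene. Symbols and coordinates came from GENCODE M21 (1894 of 1973 identifiers matched), sequences from RefSeq on GRCm38.p6. Means and SDs are over 2 pups, intervals are Clopper-Pearson at 95%, and 3 counts set the limit where none were seen. Gene ratios were not tested over pups, since an exact sign-flip permutation test cannot go below 0.5. The exact binomial test (SciPy 1.17.1) ran over all genes, and edgeR 4.0.16 gave the negative binomial alternative. Its quasi-likelihood test needs a residual degree of freedom, which 1 library a pup does not give. The members, lists and naming rule (the 10 genes, the listed neighbours, and genes next in level to the 3 highest) were chosen with earlier results of these data known. Alternatives were counts without strand, other totals, TMM and DESeq2 1.42.0 size factors, other filters, hairpin length and each pup alone.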

Additional observations from a re-analysis of the deposited data

Results flagged for a closer look

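Reads on the strand opposite to Mir337 were present in both pups. They came to 52 of 8972 reads at the locus in pup 2 (11.5 CPM, 0.580%, exact interval 0.433 to 0.759) and 45 of 7450 in pup 1 (13.1 CPM, 0.604%, 0.441 to 0.807), above the 0.661 and 0.877 CPM that a count of 0 allows. Of the other 9 genes, only Mir434 had an opposite-strand read, 1 in pup 2. Mir3544 is annotated on that strand, within the Mir337 hairpin, and has no entry of its own among the counts used here. Its 3p arm (109585813 to 109585834) overlaps that of miR-337-5p (109585818 to 109585839), and its 5p arm (109585851 to 109585873) that of miR-337-3p (109585850 to 109585871). Seeds are in capitals.
mmu-miR-337-5p: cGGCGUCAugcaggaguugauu
mmu-miR-3544-3p: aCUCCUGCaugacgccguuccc
mmu-miR-337-3p: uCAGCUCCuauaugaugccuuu
mmu-miR-3544-5p: aGAAAGGCaucauauaggagcug

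The entry at the overlapping Mir136 and Mir3071 hairpins, which is not 1 of the 10 genes, had 1192 CPM in pup 2 and 1228 CPM in pup 1. Its log2 ratio of pup 2 over pup 1 was -0.04 (exact interval -0.10 to 0.02).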

How the results depend on the processing

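The share of the 10 genes was 2.84% to 3.07% with either pup alone, 4.54% with Mir122 left out of the total, 2.68% of all uniquely mapped reads and 3.25% without genes that share 20 bases with another locus. The Rtl1-antisense part of it was 89.2% to 90.2% with either pup alone and 90.7% per hairpin length. The ratio of Mir431 to Mir127 was 1.03 to 1.24 with either pup alone and 0.873 per hairpin length. The ratio of the Mir379-Mir410 cluster to the 10 genes was 2.37 to 2.38 with either pup alone, 2.48 without regard to strand, 1.40 without genes that share sequence and 3.10 with opposite-strand reads at the places of Mir299a, Mir380, Mir376a and Mir409 added, chosen after the data were seen. The number of the 10 genes called was 6 without regard to strand, beside 123 of all 401 genes tested. It was 6 with TMM, beside 118 of 390, and 6 with DESeq2 size factors, beside 119 of 390. With at least 10 counts in both libraries it was 6, beside 115 of 312. Without the filter on low counts it was 5, beside 112 of 656, and Mir673 was lost. The negative binomial test called 0 of the 10 and 2 of all 390 genes, since it counts the scatter between pups as error. No member changed direction under these settings. With 1 pup alone the pups cannot be compared. No paired analysis was possible because the series has 1 group.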
